A study of Drosophila melanogaster with 4 samples.

Results

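The non-coding RNA genes described here are those whose symbol is CR followed by digits, or begins with snoRNA, snRNA, mir- or roX. Of 14162 gene entries, 333 carried such a symbol, and the 108 with at least 10 reads summed over 4 libraries make up the set. They are 67 small nucleolar RNA (snoRNA) genes, 32 CR genes, 5 small nuclear RNA (snRNA) genes, 2 microRNA (mir) genes and the 2 roX genes. A further 190 entries had no read in any library and 35 had between 1 and 9. The set was chosen by name and selected on this read sum, which does not use the groups. At its edge stood 3 entries with 9 reads, left out, and 3 with 10, taken in, and each of these was read in a single library.

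The libraries were made from dvpdf neurons of Drosophila melanogaster brains, so named in the labels, which do not spell the name out. The study asked how gene expression in these cells differs when nonA is targeted. Its protein binds RNA in the nucleus and is a relative of mammalian NONO and SFPQ. There were 2 libraries labelled control (control 1 and 2) and 2 labelled NonA RNAi (RNAi 1 and 2), in which nonA was the target of RNA interference in the same cells. The labels used here name no driver, construct, strain, age or sex, and leave unsaid whether replicates were separate animals. The p-values therefore speak of variation among these 4 libraries, some or all of which may be technical.

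Gene reads came to between 8419248 and 9832771 per library, and levels are given as CPM, reads scaled to the sum of gene reads. Pdf, the peptide gene that defines PDF neurons, was at 4979 and 2159 CPM in controls 1 and 2 and at 18440 and 86570 CPM in RNAi 1 and 2. For nonA itself the values were 256 and 240.5 CPM in controls against 168 and 283 CPM, log2 fold -0.14 (SE, standard error, 0.48). RNAi 2 had the most nonA of all 4 libraries, against its label, so every direction below rests on the label alone. RNAi 1 also stood apart in marker genes. The summed level of 8 glial markers was 1868 and 6011 CPM in controls against 379.8 and 2252 CPM. Among them nrv2, Gs2, Eaat1, CG11910 and CG1732 were lowest in RNAi 1, while repo and moody were lowest in control 1 and wrapper in RNAi 2. Of 6 hemocyte markers, 5 (Hml, nimC1, eater, He and srp) were at 0 in RNAi 1. The remaining one, Pxn, was highest there, at 954.9 CPM beside 321.5 and 151.0 CPM in controls 1 and 2 and 154.6 CPM in RNAi 2. Reads show neither how many cells of a type were collected nor how much RNA each held, and in bulk libraries fewer cells and less RNA per cell cannot be told apart.

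Non-coding RNA genes make RNA that works without being translated. roX1 and roX2 RNAs join the MSL proteins in the complex that raises transcription of the male X chromosome. snoRNAs guide enzymes to bases of ribosomal RNA, where the C/D class directs methylation and the H/ACA class directs the change of uridine to pseudouridine. snRNAs form the core of the spliceosome, and microRNAs are cut from longer primary transcripts. A CR symbol was given to gene models without an evident reading frame, a mixed group of long non-coding RNAs, antisense RNAs and hairpin RNAs. Proteins of the NONO and SFPQ family bind nuclear non-coding RNA in mammals.

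The set took 0.874% and 0.826% of gene reads in controls 1 and 2, and 0.605% and 0.892% in RNAi 1 and 2. The exact binomial 95% intervals, which cover counting error only, ran from 0.868 to 0.8806%, 0.8205 to 0.8318%, 0.6003 to 0.6101% and 0.8853 to 0.8979%. RNAi 1 was the low library, and the other RNAi library was the highest of the 4. Most of the reads came from very few genes. CR42862 and roX1 together held 70.3% of the 289681 reads of the set, the 15 genes with at least 1000 reads held 97.5%, and the 81 genes under 100 reads held 0.982%. The median was 672.5 reads for the CR genes and 21 for the snoRNA genes.

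**Figure D1:**
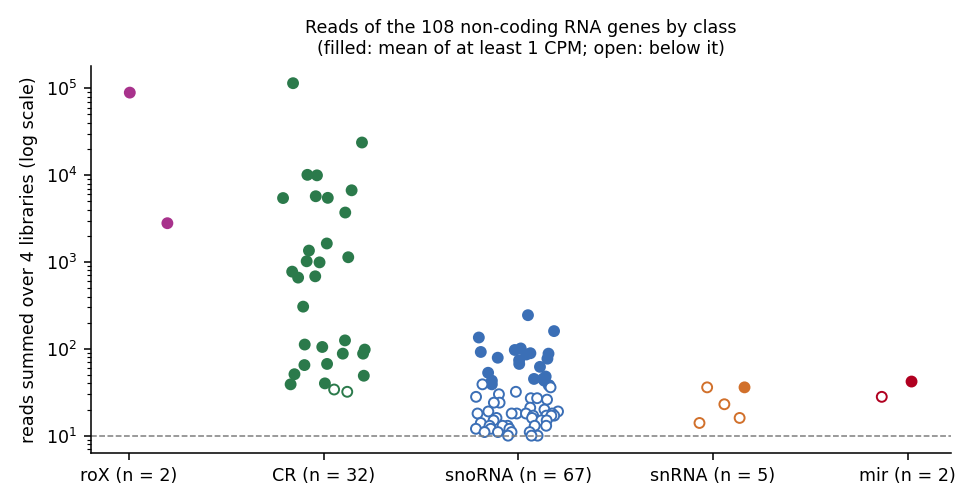
Reads of each of the 108 non-coding RNA genes summed over the 4 libraries (vertical axis, log scale), by class, with the minimum of 10 reads as a dashed line; filled points have a mean of at least 1 CPM. The CR genes run from 32 to 114506 reads, while no snoRNA gene is above 244.

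How the classes were read followed their abundance. Of the 108 genes, 32 had reads in all 4 libraries and 25 in a single library. Reads in all 4 libraries were found for 19 of 32 CR genes and both roX genes, against 10 of 67 snoRNA genes and 1 of 5 snRNA genes. Among genes with 10 to 29 reads, 47.7% of the 44 in the set and 65.7% of the 775 other genes were read in a single library. Among genes with at least 100 and fewer than 1000 reads, 75% of the 12 in the set and 81.8% of 3108 others were read in all 4. Reads that aligned to several places, between 45.2 and 55.6% of each library, are listed apart from gene reads, so levels of repeated genes such as the snRNAs are uncertain. The RNA was amplified, so reads are not independent molecules.

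In the comparison of NonA RNAi with control, 57 of the 108 genes had a mean of at least 1 CPM and were tested. None passed an adjusted p under 0.05 in edgeR's quasi-likelihood test, where 0.0% of all 9404 genes tested passed. At an unadjusted p under 0.05 there were 3 (CR31044, CR42547 and CR42871), or 5.26% of the 57, against 4.86% of all genes tested. DESeq2 also called 0 of the 57, with 9 of them left without an adjusted p, while it called 1.52% of all genes tested. At an unadjusted p under 0.05 in DESeq2 there were 6 of the 57, or 10.5%, against 8.67% of all genes. With every gene of at least 10 reads in the fit, all 108 were tested and 0 passed, against 0.0865% of 10404 genes, and 3 had an unadjusted p under 0.05 against 5.85%. For a single gene, the smallest two-sided p of an exact permutation test at this size is 0.333.

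The fitted log2 folds of the 57 genes had a median of -0.31, with 19 above 0 and 38 below, beside a median of -0.01 over all genes tested, of which 4666 were above and 4738 below. For the 23 snoRNA genes among them the median was -0.36, with 6 above and 17 below, and for the 30 CR genes -0.06, with 12 above and 18 below. Because a gene could reach 1 CPM through the group in which it was read, these medians describe the genes tested and not the whole set. Both RNAi libraries lay above both controls for 13 of the 108 genes and below for 16. Together this was 26.85% of the set, against 31.0% of all genes with at least 10 reads, 14.8% of them above and 16.2% below. Among the 57 genes tested it was 35.09%, with 7 above and 13 below, against 32.8% of all genes tested, 15.2% of them above and 17.5% below. Both shares were near those of all genes. With 2 libraries per group no test of this share was made.

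**Figure D2:**
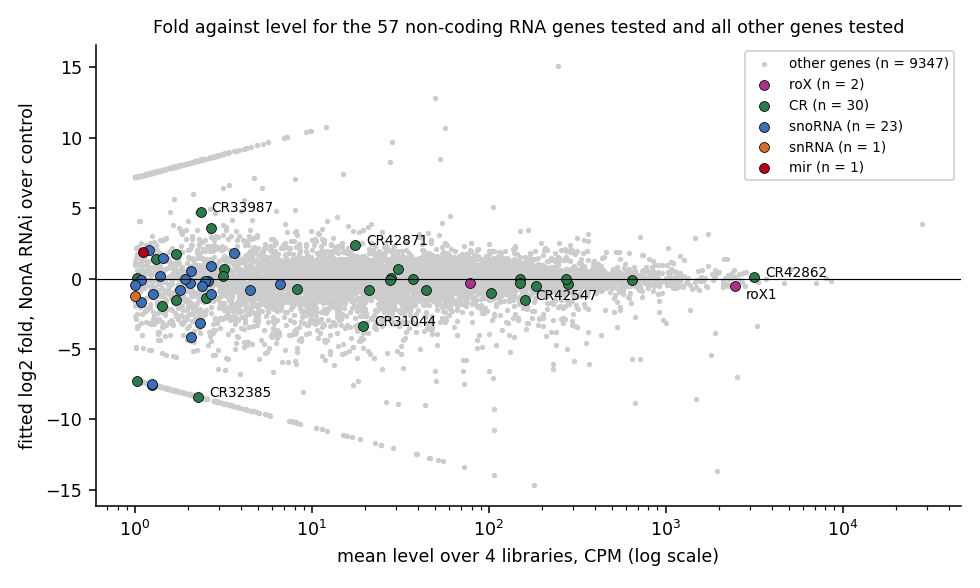
Fitted log2 fold of NonA RNAi over control (vertical axis) against the mean level in CPM (horizontal axis, log scale) for the 57 non-coding RNA genes tested, coloured by class, and 9347 other genes in grey. The slanted rows of points are genes without reads in a group, whose fitted fold depends on the fit's prior count; CR31044 at -3.35 and CR42871 at 2.37 lie away from 0 with reads in every library.

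roX1 and CR42862 were the most abundant genes of the set, of which 75 are listed without a length and have no level per length. The deposited RPKM of roX1, which also divides by listed length, was 225 and 242 in controls and 128 and 214 in the RNAi pair. In CPM it was at 2875 and 2910 in the controls against 1405 and 2660. Both RNAi libraries lay below both controls, by far the lower being RNAi 1. The means were 2893 ± 24.8 CPM and 2033 ± 887 CPM (SD, n = 2), log2 fold -0.51 (SE 0.53), with a 95% interval from -1.80 to 0.78. The adjusted p of edgeR was 0.957, and without RNAi 1 the log2 fold was -0.12. Its exons overlap those of ec on the opposite strand, which had 21.6 and 11.9 CPM (controls) against 8.68 and 14.6 CPM (RNAi).

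roX2 is the shorter RNA of the pair, listed at 1378 bases against 4422 for roX1. Its level was 88.7 and 84.8 CPM in controls and 22.95 and 116 CPM in the RNAi pair. The groups overlapped, since the RNAi libraries held both the lowest and the highest value. The log2 fold of -0.32, whose SE was 0.76 and adjusted p 0.992 in edgeR, turned to 0.42 without RNAi 1. Both roX RNAs were therefore lowest in the same library, and the ratio of roX1 to roX2 reads was 32.4 and 34.3 in controls and 61.2 and 22.9 in the RNAi pair.

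The genes of the proteins that work with roX RNA were listed beside it. Of 7 dosage compensation genes 5 had a log2 fold above 0 and 2 below, with a median of 0.14, and 0 passed in edgeR (0 at an unadjusted p under 0.05). mle, the RNA helicase that unwinds roX RNA, was at 68.9 and 83.5 CPM in controls and 90.7 and 153 CPM in the RNAi pair, log2 fold 0.68 (SE 0.47). msl-2, whose protein is made in males, was at 71.9 and 39.4 CPM (controls) against 68.75 and 53.4 CPM (RNAi). The yolk protein gene Yp3, expressed in females, was at 1364 and 6.102 CPM in controls and 53.8 and 2.45 CPM in the RNAi pair. Its highest library was control 1. Of the 7 sex-related genes listed, 6 had a log2 fold below 0 and 0 passed. Which sexes were pooled is not given in the labels used here, and its part in the roX levels was not tested.

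Among the CR genes, CR42862, a long non-coding RNA gene, had the most reads. It was at 3120 and 2870 CPM in controls and 2705 and 3956 CPM in the RNAi pair, so the groups overlapped. The log2 fold was 0.15 (SE 0.49), with a 95% interval from -1.04 to 1.35, and it was -0.15 without RNAi 2. Per listed length it was below roX1 in both controls and RNAi 2 and above it in RNAi 1, with an RPKM of 157, 154, 158 and 205 in control 1, control 2, RNAi 1 and RNAi 2. Its exons overlap those of the coding gene CG33229 on the same strand, which was at 101 and 128 CPM (controls) against 75.6 and 110 CPM (RNAi).

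CR18854 is a hairpin RNA gene. Long hairpin RNAs are cut by Dicer-2 into endogenous small interfering RNAs that load into AGO2. The level of CR18854 was 579 and 748 CPM in controls and 628 and 637 CPM in the RNAi pair. The values of the RNAi libraries lay between those of the controls, and the log2 fold was -0.07 (SE 0.45), with a 95% interval from -1.17 to 1.03. Its exons overlap those of IP3K1, a kinase gene of inositol phosphate signalling on the opposite strand, at 446.5 and 585 CPM (controls) against 487 and 566 CPM (RNAi). Control replicate 2 was the highest library for both genes. The other hairpin genes of the set, named here as a class, were little read: CR32207 had 5 and 66 reads in controls and 27 and 0 in the RNAi pair, and CR32205 had 29 and 11 against 11 and 0.

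**Figure D3:**
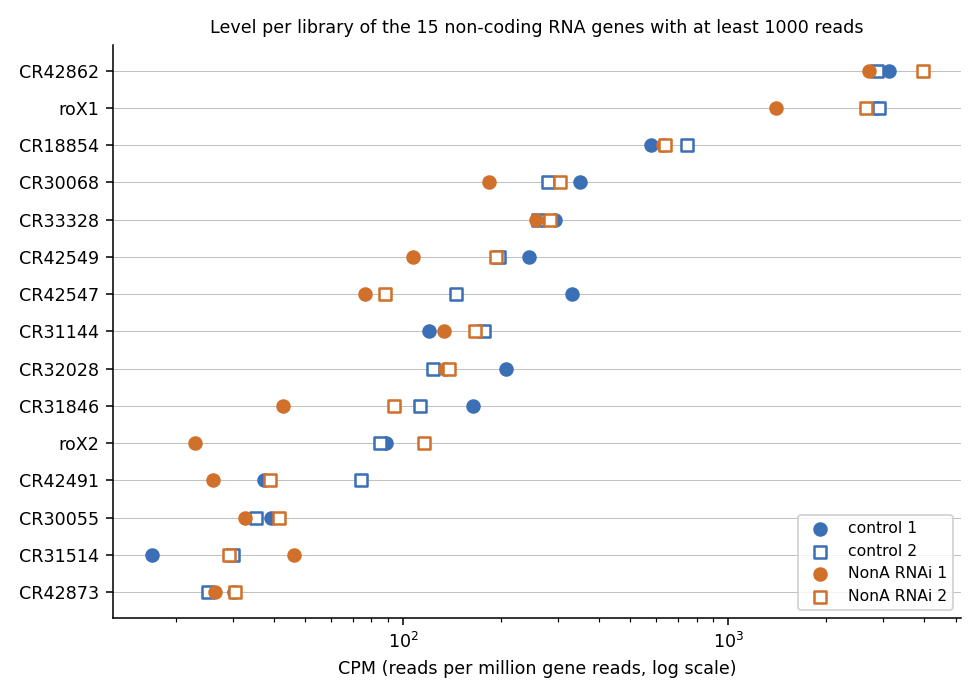
Level in CPM (horizontal axis, log scale) of the 15 non-coding RNA genes with at least 1000 reads in each of the 4 libraries; filled circles are replicate 1, open squares replicate 2, blue control and orange NonA RNAi. RNAi 1 is the lowest point for 10 of the 15 genes, among them roX1 at 1405 and roX2 at 22.95 CPM.

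Of the 15 genes with at least 1000 reads, 10 were lowest in RNAi 1, 3 in control 1, 2 in control 2 and 0 in RNAi 2. Among the 5438 other genes with as many reads, 32.5% were lowest in RNAi 1 and 34.7% were highest there, while 1 of the 15 was highest there. Some were lowest in RNAi 1 by little, such as CR33328 at 256.6 CPM beside 260.4 CPM in control 2. The 15 genes were read deeply enough for their replicates to be compared, and the median difference between replicates was 0.33 on the log2 scale in the controls and 0.55 in the RNAi pair, against 0.46 and 0.61 for the other genes. CR42549, a long non-coding RNA gene whose exons overlap those of mura on the same strand, was an example. It was at 245 and 197 CPM in controls against 107 and 194 CPM, log2 fold -0.55 (SE 0.50), or -0.19 without RNAi 1.

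The gene with the smallest p was CR31044, a long non-coding RNA whose exons hold mir-279 and mir-996 in the annotation. It is the primary transcript of these microRNAs, of which miR-279 is known to act in the output of the fly's circadian clock. CR31044 had 451 and 172 reads in controls and 13 and 48 in the RNAi pair. These were 53.6 and 17.5 CPM (controls) against 1.34 and 5.61 CPM (RNAi), and both RNAi libraries lay below both controls. The means were 35.5 ± 25.5 CPM and 3.48 ± 3.02 CPM (SD, n = 2), log2 fold -3.35 (SE 1.02), and the adjusted p was 0.919 in edgeR and 0.111 in DESeq2. Over the libraries left out, the log2 fold ranged from -4.71 to -2.33. Both microRNAs are cut from the transcript, and their mature forms were not measured here.

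CR42547, an antisense RNA gene, was at 331 and 146 CPM in controls and 76.2 and 88.2 CPM in the RNAi pair. The groups did not overlap, and the log2 fold was -1.54 (SE 0.55); its adjusted p was 0.919 (edgeR) and 0.255 (DESeq2). Without control 1 it was -0.83. Its exons overlap those of CG15674 on the opposite strand, which was at 384 and 124.5 CPM (controls) against 77.02 and 41.7 CPM (RNAi), log2 fold -2.10. CG10080, the other gene on that strand, was at 77.3 and 27.05 CPM (controls) against 61.2 and 32.5 CPM (RNAi), with groups that overlapped. No source says whether strand was used in counting, so how reads were assigned where CR42547 and CG15674 overlap is not known.

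CR42871, an antisense RNA gene named pncr014:3L in the files, was the higher counterpart. It had 40 and 65 reads in controls and 444 and 112 in the RNAi pair, or 4.75 and 6.61 CPM (controls) against 45.9 and 13.1 CPM (RNAi). Both RNAi libraries lay above both controls, and they differed from each other more than the controls did. The log2 fold was 2.37 (SE 0.86); its adjusted p was 0.919 (edgeR) and 0.337 (DESeq2), and without RNAi 1 it was 1.20. CG6650, whose exons it overlaps from the opposite strand, was also highest in RNAi 1, at 42.3 and 73.6 CPM in controls against 158 and 68.01 CPM. CG6661, whose exons it also overlaps from that strand, had log2 fold -0.54, of the opposite sign, with 2.73 and 1.83 CPM (controls) against 2.998 and 0.117 CPM (RNAi).

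**Figure D4:**
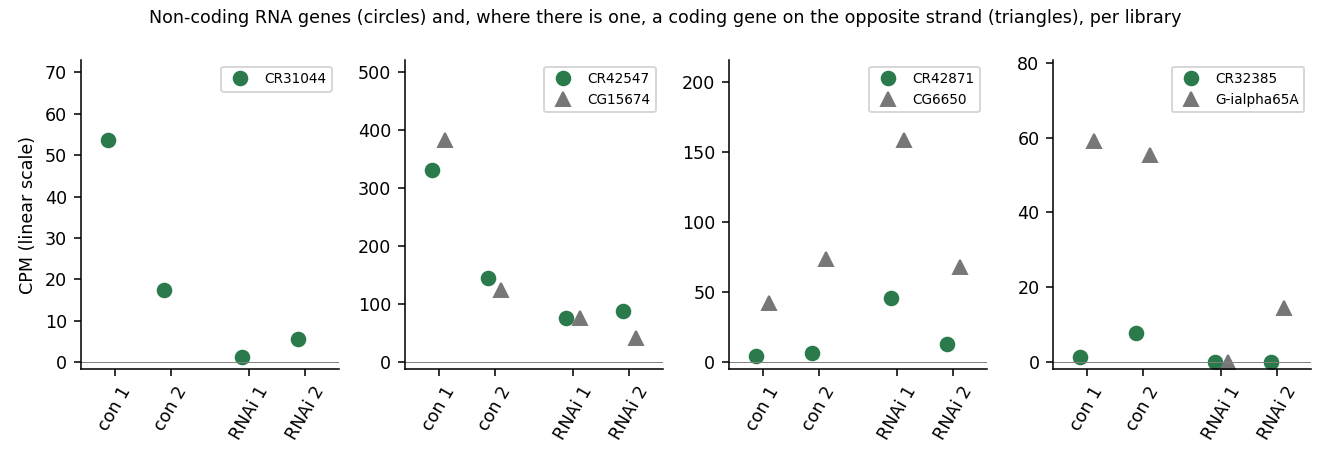
Level in CPM (vertical axes, linear, including 0, with a scale of its own in each panel) per library of CR31044, and of CR42547, CR42871 and CR32385 (circles), with a coding gene annotated on the opposite strand (triangles). CR42547 and CG15674 are both lower in each RNAi library than in each control, while CR32385 is at 0 in both RNAi libraries.

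A gene on the opposite strand was found for 21 of the 101 genes placed, among them 4 of 61 snoRNA genes. Of the 31 CR genes that could be placed in the Release 6 annotation, 15 had a gene on the opposite strand, 6 shared exons with a gene on the same strand, 3 lay in introns of a gene on the same strand and 8 overlapped no gene. Among these 31, 5 were placed as the whole coding gene that holds them today, so the neighbours counted are those of that gene. CR30068, CR33328 and CR32028 thus counted as overlapping no gene. CR31846 and CR42873 counted as having a gene on the opposite strand, also in the pairs that follow. Of the 11 pairs of a tested CR or roX gene and a tested coding gene with overlapping exons on opposite strands, 9 had log2 folds of the same sign. These pairs came from 8 genes, and over all opposite-strand pairs, exons overlapping or not, the count was 11 of 16. Some of these folds lay near 0, such as that of CR31144 at 0.01. Ambiguous reads, 0.2195 to 0.3167% of each library, are listed apart from gene reads, but how they were defined is not stated. Whether such pairs share reads is therefore not known, and the sign is a description of these libraries. CR31514, antisense to CG12947 and RpS29, was at 16.9 and 30.1 CPM in controls and 46.2 and 29.1 CPM in the RNAi pair, and CG12947 at 3.33 and 4.58 CPM (controls) against 18.9 and 13.55 CPM (RNAi). CR31144, antisense to the ribosomal protein gene RpL3, was at 121 and 177 CPM (controls) against 134 and 166 CPM (RNAi), log2 fold 0.01 (SE 0.45).

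Some CR genes were read in few libraries. CR32385 had 12 and 76 reads in controls 1 and 2 and none in either RNAi library. Its pooled reads were at least 29.3-fold lower, with 3 reads over the group as the floor. The bound ranged from 8.66-fold without control 2 to 46.97-fold without control 1. Such a bound covers pooled reads and not the spread between libraries. The fitted 95% interval of CR32385 ran from -17.36 to 0.5788 in log2 fold and included 0. CR32385 lies opposite an intron of G-ialpha65A, a G protein subunit gene, which was at 59.15 and 55.2 CPM in controls and 0 and 14.4 CPM in the RNAi pair. CR30009 had 8 and 31 reads against 0, a bound of 12.99-fold lower, or 5.775-fold without control 2. Its fitted 95% interval, from -18.05 to 3.574 in log2 fold, also included 0. Both genes entered the set through control reads alone, so their being lower is not separate support for a difference. CR33987 was read in the other direction, with 0 and 3 reads in controls and 60 and 25 in the RNAi pair. That was 28.4 times as many per gene read (95% interval of counting error alone 9.38 to 140.3). With the spread between libraries in the fit, the log2 fold of CR33987 was 4.76, with a 95% interval from -2.155 to 11.67 that includes 0. Its exons overlap those of tio, a zinc finger gene on the same strand, at 0 and 4.475 CPM (controls) against 10.1 and 2.69 CPM (RNAi). None of these passed in edgeR, where the smallest adjusted p among all 57 genes was 0.919.

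Other CR genes had groups that overlapped or had few reads. CR42491, which shares exons with RpL22, was at 37.4 and 74.4 CPM in controls and 26.05 and 39.03 CPM in the RNAi pair, log2 fold -0.78 (SE 0.56). CR30055, in an intron of the gene of the corepressor Sin3A but on the opposite strand, was at 39.3 and 35.4 CPM (controls) against 32.8 and 41.7 CPM (RNAi), with a log2 fold, -0.004, that took the opposite sign under other scalings. CR42746, opposite an intron of bun, had 0 and 14 reads against 20 and 15. Both RNAi libraries of CR42746 lay above both controls, with log2 fold 1.40 (SE 3.10).

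The annotation gives 5 of the CR genes as parts of protein-coding genes today, and each has a row of its own beside the row of that gene. These are CR30068 at Ih, CR33328 at sqd, CR32028 at Unr, CR31846 at CG42784 and CR42873 at the gene the files call CG6364, the last of them named as part of this group. They are counted in the set because the rule goes by the symbol. Without them 52 genes were tested, 0 passed in edgeR, and the median log2 fold was -0.31. The split of reads between the rows of a locus differed between libraries. CR31846 was at 164 and 113 CPM in controls and 42.9 and 94.1 CPM in the RNAi pair, with no overlap and log2 fold -1.01 (SE 0.54), while CG42784 itself was at 560 and 289.6 CPM (controls) against 281 and 495 CPM (RNAi). CR30068 was at 351 and 279 CPM (controls) against 183 and 304.5 CPM (RNAi), and Ih, a channel gene of the hyperpolarisation-activated current, at 513 and 250.1 CPM (controls) against 199 and 240.2 CPM (RNAi). CR33328, at the gene of the hnRNP protein Squid, hardly varied, at 294 and 260.4 CPM (controls) against 257 and 284 CPM (RNAi), and sqd was at 436 and 485 CPM (controls) against 383 and 462 CPM (RNAi). CR32028 was at 207 and 124 CPM (controls) against 134 and 139 CPM (RNAi), and Unr, an RNA-binding protein gene known in dosage compensation, at 88.01 and 159 CPM (controls) against 105 and 137 CPM (RNAi).

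The snoRNA genes were the largest class and were low throughout. Of 249 snoRNA entries 150 had no read, 32 had 1 to 9 and 67 had at least 10, and none exceeded 244 reads. Their names tell the kind. Of the 67, 33 carry the Psi name of pseudouridylation guides, 24 the Me name of methylation guides, 5 the Or name of orphans without a known target base and 5 other names. Summed over all 108 Psi entries, without any minimum, the level was 53.8 and 47.6 CPM in controls and 31.9 and 35.6 CPM in the RNAi pair. Over all 100 Me entries it was 24.9 and 22.8 CPM (controls) against 27.5 and 28.3 CPM (RNAi). The groups did not overlap for either sum, the Psi sum being lower and the Me sum higher in both RNAi libraries. Over the 24 Me genes of the set alone the groups overlapped, at 24.94 and 22.17 CPM (controls) against 25.95 and 24.07 CPM (RNAi). Over the 33 Psi genes of the set they did not, at 53.81 and 45.87 CPM (controls) against 28.12 and 33.18 CPM (RNAi). Of all single genes with at least 10 reads, 31.0% had groups that did not overlap. The sum over other names was also higher in both, at 1.307 and 1.017 CPM (controls) against 2.274 and 6.193 CPM (RNAi). The orphan sum overlapped, at 9.621 and 2.848 CPM (controls) against 5.169 and 8.88 CPM (RNAi). These sums were looked at after the reads were seen, and no test was made of them.

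**Figure D5:**
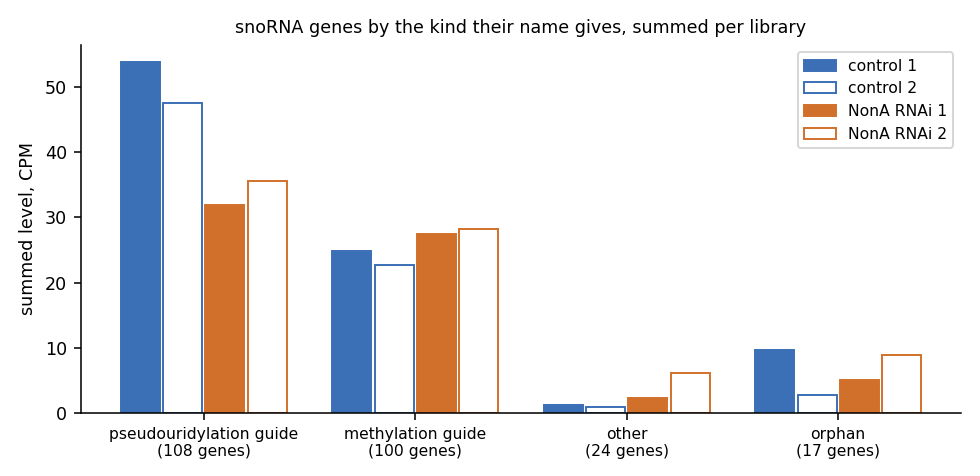
Summed level in CPM (vertical axis, from 0) of all snoRNA entries by the kind their names give, for each library; bars are blue for control and orange for NonA RNAi, filled for replicate 1 and open for replicate 2. The Psi sum is 53.8 and 47.6 CPM in controls and 31.9 and 35.6 CPM in the RNAi pair.

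What the snoRNA genes shared was their place. Of the 61 that could be placed, 56 lay within a gene on the same strand without touching its exons, that is, in an intron, as is known for fly snoRNAs. For 27 of them the host was a ribosomal protein gene and for 13 a Uhg gene, a non-coding host gene whose product is its introns, with 1 in both kinds, and 17 lay in other genes. exba, a translation regulator gene, held 6 of them, Uhg5 held 5, and RpL17 and Uhg4 held 3 each. Set against the reads of their 36 hosts, the 56 genes had 44.65 reads per 10000 host reads in control 1 and 27.6 in control 2, and 23.5 and 22.9 in RNAi 1 and 2. Control replicate 1 was the high library, with 619 snoRNA reads beside 138623 host reads, the fewest of the 4. Reads from unspliced host RNA would also count here, and their part in the snoRNA levels was not tested.

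Within a host the snoRNAs and the host RNA differed. RpL17 was at 283 and 638.5 CPM in controls and 575 and 592 CPM in the RNAi pair, and was lowest in control 1. Its 3 snoRNA genes had 76 and 41 reads in the controls against 20 and 17, and were highest in that library. The 5 snoRNA genes of Uhg5 had 95 and 36 reads against 32 and 30, and Uhg5 itself was at 269.9 and 144 CPM (controls) against 149.7 and 165.5 CPM (RNAi). There both the host and its snoRNAs were highest in control 1. The 6 in exba had 118 and 28 reads against 38 and 76, while exba was at 905 and 949.7 CPM (controls) against 751 and 660.3 CPM (RNAi).

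Among the best-read snoRNA genes, reads often differed several-fold between replicates. snoRNA:Psi18S-531, in an intron of RpL22 and the best read, had 64 and 72 reads in controls and 76 and 32 in the RNAi pair. snoRNA:Psi28S-612 had 76 and 22 against 51 and 11. snoRNA:Or-CD2 had 42 and 5 reads against 27 and 18, log2 fold -0.16, or 2.24 without control 1. Leaving out 1 library therefore turned its sign. snoRNA:Me18S-C1831 had 27 and 41 reads against 33 and 0, and snoRNA:Psi28S-1153 had 7 and 29 against 7 and 54. snoRNA:Me28S-G3253, in RpS9, had 39 and 6 against 29 and 15, and snoRNA:Me18S-G393 had 28 and 23 against 26 and 11.

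The snoRNA genes whose groups did not overlap had few reads. snoRNA:Me28S-A2634c, in introns of RpL23A and Uhg7, had 6 and 25 reads in controls and 57 and 47 in the RNAi pair, log2 fold 1.80 (SE 1.88). snoRNA:Psi28S-1837a, in CG10576, had 0 and 9 against 24 and 12, and snoRNA:Psi28S-3571, in exba, 0 and 15 against 15 and 23. Lower were snoRNA:Psi28S-1175a, in RpS16, with 25 and 20 reads against 0 and at least 14.98-fold lower, and snoRNA:Me28S-U1848, in Uhg5, with 36 and 7 reads against 0 and at least 14.3-fold lower. The bound for snoRNA:Me28S-U1848 was 4.33-fold without control 1. With either RNAi library left out, the bounds of both genes were 6.72-fold to 7.95-fold. The fitted 95% interval of snoRNA:Psi28S-1175a ran from -17.72 to 2.685 in log2 fold, and that of snoRNA:Me28S-U1848 from -18.05 to 3.017. Both intervals included 0. Both genes entered the set through control reads alone, so their being lower is not separate support for a difference. snoRNA:Psi28S-291, in RpL3, had 18 and 57 against 4 and 0. RpS16 itself was higher in each RNAi library than in each control, at 523 and 759 CPM in controls against 983 and 900.2 CPM. The adjusted p of edgeR was at least 0.919 for each snoRNA gene tested.

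Genes for the proteins of the snoRNA particles were measured beside them. Of 8 snoRNP genes 5 had a log2 fold above 0 and 3 below, with a median of 0.20, and 0 passed in edgeR (0 at an unadjusted p under 0.05). Nop60B, the pseudouridine synthase of the H/ACA particle, was at 9.977 and 38.75 CPM in controls and 74.85 and 29.45 CPM in the RNAi pair, log2 fold 1.10 (SE 0.81). Its groups overlapped, with the highest value in RNAi 1, and the log2 fold ran from 0.27 without RNAi 1 to 2.38 without control 2. Of the other non-coding RNA genes listed outside the naming rule, 10 of 14 were tested, 6 above and 4 below 0, 0 passed and 1 had an unadjusted p under 0.05. That gene, pncr009:3L, was at 4.51 and 38.3 CPM in controls against 2.58 and 1.75 CPM, log2 fold -3.30, or -1.05 without control 2. Hsromega, the nuclear RNA that gathers hnRNP proteins in omega speckles, was at 3073 and 2255 CPM (controls) against 1632 and 2067 CPM (RNAi), log2 fold -0.53 (SE 0.49).

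The snRNA genes were nearly unread. The labels give the RNA as mRNA, and mature snRNAs lack the poly(A) tail of an mRNA. snRNA:U11 of the minor spliceosome had reads in all 4 libraries, 16 and 9 in controls and 6 and 5 in the RNAi pair, and its log2 fold of -1.205 had an SE of 2.985. It lies in an intron of Fie on the opposite strand, which was at 524 and 324.0 CPM (controls) against 498 and 538 CPM (RNAi). snRNA:U4:38AB had 36 reads in RNAi 1 and 0 elsewhere. It lies in an intron of sick, which was also highest there, at 584.0 CPM against 120.0 CPM, 176.5 CPM and 103 CPM in the other libraries. snRNA:U4:39B, snRNA:U1:82Eb and snRNA:U5:63BC had 23, 16 and 14 reads in all. Of 13 genes of spliceosomal snRNP proteins 8 had a log2 fold above 0 and 5 below, with a median of 0.12, and 0 passed in edgeR (0 at an unadjusted p under 0.05). SmD3, a subunit of the Sm ring that snRNAs carry, was at 39.2 and 39.8 CPM in controls and 24.1 and 24.2 CPM in the RNAi pair, log2 fold -0.71 (SE 0.49). Of 3 genes of the 7SK particle, 3 were above 0, and 0 passed; among them CG3508, the Hexim gene, had log2 fold 0.53 (SE 0.55).

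The mir genes had still fewer reads. mir-100, which lies in the let-7 complex transcript beside let-7 and mir-125 in flies, had 0 and 9 reads in controls and 24 and 9 in the RNAi pair. mir-34, known in the ageing fly brain and held by the transcript it shares with mir-277, had 28 reads in control 1 and 0 elsewhere, where 3 reads are between 0.305 and 0.3505 CPM. Reads at these genes do not measure the mature microRNAs, which are too short for an mRNA library. Of 7 microRNA biogenesis genes 4 had a log2 fold above 0 and 3 below, with a median of 0.65; 0 passed in edgeR, and 2 had an unadjusted p under 0.05. drosha, the nuclease that cuts primary microRNA transcripts, was at 39.7 and 40.99 CPM in controls and 191.0 and 58.3 CPM in the RNAi pair. Its log2 fold was 1.63 (SE 0.65), and it was 0.53 without RNAi 1. Dcr-1, which cuts the precursor, was at 11.2 and 6.305 CPM (controls) against 72.05 and 12.7 CPM (RNAi). CR31044, the primary transcript described above, was lowest in the library in which both were highest. That library, RNAi 1, was also the lowest for 10 of the 15 genes of the set with at least 1000 reads. A link between these levels was not tested.

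Markers of other cell types were summed in the same libraries. All 8 photoreceptor markers had a log2 fold below 0, with summed levels of 355 and 492 CPM in controls against 130 and 232 CPM, and 0 passed in edgeR while DESeq2 called 2. All 6 fat body markers tested were below 0, from 959 and 190.0 CPM to 132 and 95.9 CPM, with 0 passing in edgeR and 3 in DESeq2, as were all 8 glial ones, with 0 in both. Of the glial ones only nrv2 had groups that did not overlap. Eaat1, CG1732 and CG11910 were highest in RNAi 2, at 354.2, 414.3 and 181.6 CPM, and lowest in RNAi 1, while the other glial markers were highest in a control. Of the 6 hemocyte markers 2 were above 0 and 4 below, and their summed level was 1127 and 421.8 CPM (controls) against 954.9 and 466.6 CPM (RNAi), all of it Pxn in RNAi 1. The 5 neuronal markers had a median log2 fold of -0.02 and summed to 2106 and 1497 CPM (controls) against 1586 and 2091 CPM (RNAi). Lsp2, a fat body storage protein gene, was at 0 in both RNAi libraries, and Arr1, a photoreceptor arrestin gene, at 1.86 and 0.818 CPM there against 14.0 and 89.3 CPM. The part of these cell types in the levels of CR31044, CR42547 or CR42871 was not tested.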

How the data were processed

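RNA from dvpdf neurons was amplified and sequenced in 4 libraries, 2 per group. Per the file headers, the authors deposited raw read counts per gene, RPKM values and a gene length in bases, with 4 further entries for reads given to no gene. Per the submitters' processing notes, TopHat2 2.1.1, Cufflinks and the build dm3 were used; which program counted reads, with which annotation and whether by strand, is not stated. The RPKM values deposited by the authors are 0 where the length is listed at 0, and served only to compare levels per length.

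The 108 genes and all gene lists were chosen with earlier results of these data known. Counts were divided by the sum of gene rows (CPM). The 4 entries naming no gene were left out: reads not aligned uniquely were 45.2 to 55.6% and reads in no feature 27.8 to 32.5% of each library. Genes with a mean of at least 1 CPM (9404) were fitted with the quasi-likelihood F-test of edgeR 4.0.16 in R 4.3.3, with Benjamini-Hochberg adjustment over all of them and a threshold of 0.05. Each SE was taken as |log2 fold| over the root of F. DESeq2 1.42.0, other scalings, other filters, a replicate block and each library left out were alternatives. On simulated data of 9404 genes for this comparison, edgeR recovered 1.5% of 4-fold, 19.4% of 16-fold and 77.3% of 64-fold changes. DESeq2 recovered 17.9%, 67.2% and 97%. In a second simulation, without changed genes, edgeR made 0 calls and DESeq2 20. The changed genes were drawn from the better-read genes only, and all genes were given the same dispersion. For both programs recovery is known by size of fold alone, and not by level or class. These shares therefore do not show what would be found among the genes of the set, most of which were little read. Places, strands and neighbours came from the Ensembl and RefSeq Release 6 annotation, not the files' build, so no coordinates are given; 101 of the 108 genes matched. The genes named are every roX gene, the snRNA and mir genes, the 8 snoRNA and 12 CR genes with the most reads, up to 8 tested genes per direction with the smallest p among those whose groups did not overlap, the gene of smallest p in each list, nonA, and genes overlapping any of these. Others were named after their values were seen.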

Additional observations from a re-analysis of the deposited data

How the results depend on the processing

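No gene of the set passed the threshold under any of the alternatives, while the count over all genes tested, 0 in edgeR, was 9 with a minimum of 10 reads, 79 without a filter and 143 in DESeq2. It was 0 to 22 with 1 library left out, 22 being without control replicate 2. Of 84 named genes with a fit, DESeq2 took 3 (Pdf, Arr1 and Lsp2) and the fit without a filter 2 (Arr1 and Lsp2) past the threshold. The replicate numbers did not pair the libraries (r = -0.0115 over 9404 genes). With a replicate block 0 genes passed, and the log2 fold turned to 0.561 for snoRNA:Or-CD2 and 0.417 for snoRNA:Me28S-G3253. CR33328 turned to 0.005 with TMM scaling, and CR30055 to 0.041 with TMM and 0.011 with the median of ratios and DESeq2. Leaving out 1 library turned 15 genes (control 1), 5 (control 2), 10 (RNAi 1) and 13 (RNAi 2). For 46 of the 84 the fold, not its log2, changed by over 1.5 times when 1 library was left out. The lowest and highest log2 folds of those that turned were: roX2 -1.918 to 0.419, snoRNA:Psi18S-531 -0.994 to 0.074, snoRNA:Psi28S-612 -2.119 to 0.55, snoRNA:Psi28S-1153 -1.37 to 2.061, snoRNA:Or-CD2 -1.023 to 2.238, snoRNA:Me28S-G3253 -0.959 to 1.938, CR42862 -0.147 to 0.402, CR18854 -0.241 to 0.129, CR33328 -0.122 to 0.054, CR31144 -0.24 to 0.316, CR32028 -0.599 to 0.138, CR30055 -0.189 to 0.159, elav -0.104 to 0.455, He -10.347 to 0.058, Yp3 -8.117 to 2.202, nonA -0.566 to 0.191, IP3K1 -0.153 to 0.237, CG10080 -0.723 to 0.792, RpL22 -0.517 to 1.252, Sin3A -0.038 to 0.176, RpS29 -0.258 to 0.668, CG6661 -4.132 to 0.393, RpL23A -0.506 to 0.932, Uhg7 -0.228 to 1.628, RpL27A -0.371 to 0.317, Uhg4 -0.156 to 0.317, Uhg5 -0.776 to 0.133, CG13958 -1.323 to 2.556, sick -0.527 to 1.978, Fie -0.016 to 0.677, CG8678 -0.339 to 0.14. The cause was not tested. Depth limits the snoRNA, snRNA and mir genes, where 3 reads are 0.305 to 0.356 CPM.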
